A study of Mus musculus with 15 samples.

Results

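The unfolded protein response and the integrated stress response were described here through 34 genes measured by RNA sequencing in mouse fat. The members were taken as the rows of a table of raw read counts whose Ensembl gene identifiers carry 34 listed mouse symbols. All 34 symbols matched 1 identifier each, of 37991 identifiers in the table. They comprise 11 chaperones and cochaperones of the endoplasmic reticulum (ER), 5 enzymes of disulfide bond formation, 6 stress sensors and transcription factors, 6 genes activated by the factors ATF4 and CHOP, 2 phosphatase subunits and 4 genes of ER-associated degradation. All 34 passed the filter on low counts in every comparison, so none was left out.

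The libraries came from 2 fat depots of mice with or without the gene for IL-33, an alarm cytokine set free when cells are injured. All 4 groups had the C57BL/6 strain background. Inguinal white adipose tissue, a subcutaneous depot in which heat-producing beige adipocytes can arise, was sampled at postnatal day 24 from IL-33 knockout (IL-33-/-) mice in 3 libraries, numbered 2 to 4, and from wild-type mice in 4 libraries. Brown adipose tissue, a heat-producing depot, was sampled at postnatal day 0.5 from mice labelled IL-33-/- in 4 libraries and from wild-type mice in 4 libraries. Depot and age changed together and cannot be told apart. The labels do not say whether each library is from its own animal, so the p-values measure the spread between these libraries. The sources used here do not describe the deleted part of Il33.

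The unfolded protein response is set off when unfolded proteins collect in the ER. Its sensors are IRE1 (gene Ern1), ATF6 and PERK (gene Eif2ak3). IRE1 splices the Xbp1 mRNA, and the resulting XBP1 factor, together with cleaved ATF6, raises chaperones and degradation genes. PERK phosphorylates the translation factor eIF2alpha, as do other kinases that sense amino acid shortage, haem shortage or viral RNA. This shared step, the integrated stress response, lowers general translation and favours translation of ATF4, which acts with CHOP (gene Ddit3) on genes of amino acid synthesis, redox balance and feedback. Gene-level counts do not separate spliced from unspliced Xbp1 mRNA and do not measure phosphorylation or translation. In fat, secretory load and mitochondrial stress are both known to engage these pathways.

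Total counts ran from 26059635 to 53923009 per library. Levels are given as counts-per-million (CPM) scaled by the TMM method over all 15 libraries. Il33 stood at 0.346, 0.471 and 0.0791 CPM in inguinal knockout libraries, against 3.45, 4.61, 3.82 and 3.55 CPM in inguinal wild-type libraries (log2 change -3.73, SE 0.36, edgeR adjusted p = 1.25e-05). In brown fat it stood at 0.413, 1.75, 1.41 and 0.594 CPM in the libraries labelled knockout, against 1.82, 3.21, 2.01 and 1.73 CPM in wild-type libraries, and these groups overlapped (log2 change -1.08, SE 0.44, edgeR adjusted p = 0.229). The brown group is therefore called labelled knockout throughout. Brown labelled knockout library 1 stood apart: on the first principal component of brown fat, which held 39.6% of the variance, it lay at 38.1, on the side of wild-type libraries (21.1 to 29), while labelled knockout libraries 2 to 4 lay between -58.8 and -24.7. On the second component, which held 19.7%, library 1 lay at 50.4, beyond all other brown libraries of both groups (-39.1 to 10.8). Adipocyte markers summed to 17172 to 18217 CPM in inguinal knockout, 17291 to 19579 CPM in inguinal wild-type, 9399 to 10400 CPM in brown labelled knockout and 10499 to 12417 CPM in brown wild-type libraries. All 6 were detected in every group. Thermogenic markers and skeletal muscle genes were also present in both depots, with summed levels given beside the results they move with. In bulk tissue, fewer cells of a type and less RNA per cell cannot be told apart.

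Promoter sequence is shown first, because members from several roles carried known response elements in their promoters. RefSeq promoter windows from 250 bases before to 50 bases after the transcription start (build GRCm38.p6) were available for 30 of the 34 members. They were searched on both strands for the ER stress response element (ERSE, CCAAT and CCACG with 9 bases between them, recognised by ATF6 and XBP1 with NF-Y), for its shorter form (ERSE-II, ATTGG and CCACG with 1 base between them) and for the element that ATF4 binds with C/EBP partners (CARE, TGATGNAA). In the lines that follow, the capitals mark the match. The first lines are 5 chaperone genes with an ERSE.

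Hspa5, chr2:34772020-34772048, plus strand: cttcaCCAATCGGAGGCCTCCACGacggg
Hsp90b1, chr10:86705633-86705661, minus strand: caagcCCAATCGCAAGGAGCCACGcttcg
Hsp90b1, chr10:86705528-86705556, minus strand, element on the other strand: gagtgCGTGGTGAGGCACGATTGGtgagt
Calr, chr8:84847070-84847098, minus strand, element on the other strand: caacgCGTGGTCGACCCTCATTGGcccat
Dnajc3, chr14:118937822-118937850, plus strand: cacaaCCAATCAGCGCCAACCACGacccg
Creld2, chr15:88819515-88819543, plus strand, element on the other strand: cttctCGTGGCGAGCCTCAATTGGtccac

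The same element was read in the disulfide isomerase gene Pdia6 and in the degradation gene Syvn1, and a further one in the chaperone gene Canx.

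Pdia6, chr12:17266486-17266514, plus strand: agagaCCAATGAAAGGCGGCCACGgcgtg
Syvn1, chr19:6046527-6046555, plus strand: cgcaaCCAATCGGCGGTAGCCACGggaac
Canx, chr11:50325795-50325823, minus strand: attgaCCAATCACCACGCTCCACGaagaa

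The ERSE match of Hspa5 begins 65 bases before the transcription start and that of Syvn1 begins 44 bases before it. The ERSE letters were found in 8 of the 30 member windows, against 0.14% of the 27025 genes with a window. The shorter ERSE-II was found in 2 members, against 0.04% of genes. None of the 3 elements overlapped another in the members' windows.

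Dnajb11, chr16:22857844-22857870, plus strand: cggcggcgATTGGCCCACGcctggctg
Herpud1, chr8:94386369-94386395, plus strand: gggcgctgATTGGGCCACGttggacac

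The CARE letters were found in 4 members, against 4.51% of genes. Of these, Asns and Trib3 rose in inguinal knockout fat and Chac1 fell.

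Asns, chr6:7693217-7693240, minus strand: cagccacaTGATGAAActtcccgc
Trib3, chr2:152344031-152344054, minus strand, element on the other strand: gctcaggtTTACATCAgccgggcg
Chac1, chr2:119351041-119351064, plus strand, element on the other strand: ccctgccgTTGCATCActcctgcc
Herpud1, chr8:94386309-94386332, plus strand, element on the other strand: acggcgggTTGCATCAgcccgcac

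A match describes letters in these windows and is not a measured binding site, and a window without a match shows only that these letters are not in it. The members were listed as known genes of these responses, so the shares beside all genes are no test of an excess.

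In inguinal fat at day 24, genes of the integrated stress response changed in both directions in knockout mice, and 10 of the 11 ER chaperones did not pass the test. Trib3, Ddit3, Asns, Ppp1r15a, Ero1l, Atf6, Ern1 and Sel1l rose, by 2.18 at most and 0.27 at least on the log2 scale. Chac1, Xbp1, Phgdh, P4hb, Creld2 and Pdia3 fell, and the mRNAs of Atf4 and Hspa5 did not pass the test. In all, 14 of the 34 members passed at an edgeR adjusted p below 0.05, against 28.6% of the 15710 genes tested. The 8 that rose stand beside 15.3% of all genes tested and the 6 that fell beside 13.3%. The median log2 change was 0.0057 over the members and -0.016 over all genes tested. Without knockout library 3, 9 members passed, beside 20.2% of genes tested, 7 of them higher (beside 11.8%) and 2 lower (beside 8.40%). When all 4 groups of the study shared 1 fit, 6 members passed, beside 13.3% of genes tested: Trib3, Asns, Atf6, Ero1l, Xbp1 and P4hb. The calls of Ddit3, Ppp1r15a, Ern1, Chac1, Phgdh, Creld2, Sel1l and Pdia3 were lost in that fit (edgeR adjusted p from 0.0623 for Ppp1r15a to 0.27 for Ddit3).

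**Figure D1:**
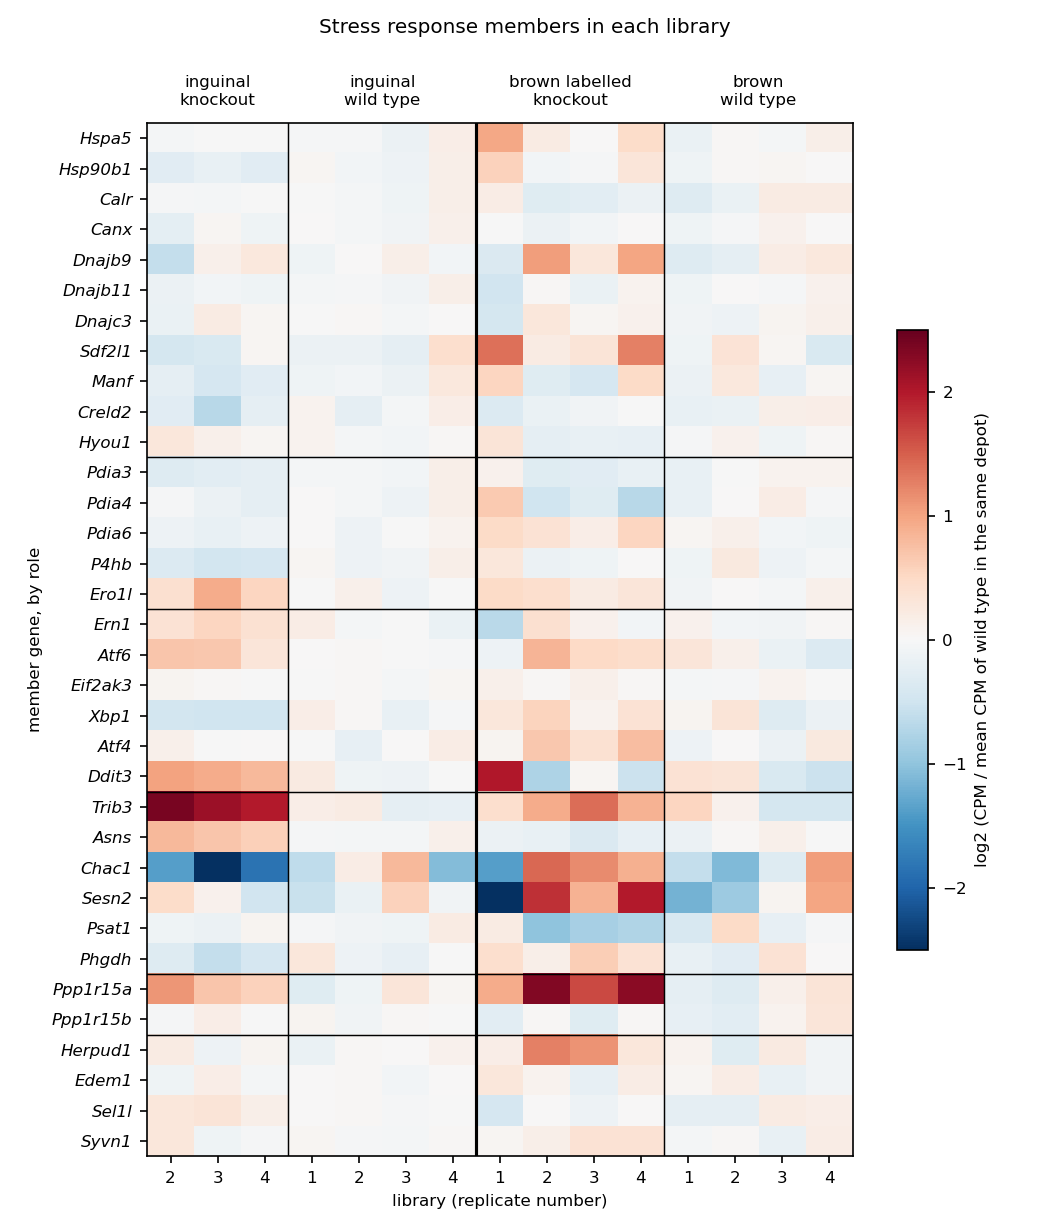
Heat map of the 34 members (rows, by role) in the 15 libraries (columns), as log2 of CPM over the mean CPM of the wild-type libraries of the same depot, with the colour scale ending at -2.5 and 2.5. The 3 inguinal knockout columns are red for Trib3, Asns, Ddit3 and Ppp1r15a and blue for Chac1 and Xbp1, and brown labelled knockout library 1 differs from its 3 companions for Ddit3, Sesn2, Chac1 and Psat1.

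Among the sensors and transcription factors, Ddit3 (ENSMUSG00000025408), which encodes the pro-apoptotic factor CHOP, stood at 31.6, 29.8 and 27.6 CPM in knockout libraries, against 18.4, 14.5, 14.3 and 15.5 CPM in wild-type libraries. Every knockout library lay above every wild-type library (log2 change 0.93, SE 0.11, edgeR adjusted p = 5.64e-05), and the call was lost when all 4 groups shared 1 fit (edgeR adjusted p = 0.27). Atf6 (ENSMUSG00000026663), the membrane-bound factor cleaved in the Golgi, stood at 99.7, 98.8 and 76 CPM in knockout libraries and 61.7, 63, 61.2 and 60.3 CPM in wild-type libraries. The groups did not overlap, and the wild-type values were close to each other (log2 change 0.59, SE 0.10, edgeR adjusted p = 0.000824). Ern1 (ENSMUSG00000020715), the gene of the IRE1 kinase and nuclease, stood at 31.7, 35.6 and 31.8 CPM in knockout libraries, against 28, 23.9, 24.4 and 22 CPM in wild-type libraries. It also rose without overlap (log2 change 0.44, SE 0.10, edgeR adjusted p = 0.00533), a call lost when all 4 groups shared 1 fit (edgeR adjusted p = 0.115).

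Xbp1 (ENSMUSG00000020484), whose mRNA IRE1 splices, moved the other way. It stood at 202, 196 and 196 CPM in knockout libraries, against 312, 284, 244 and 271 CPM in wild-type libraries, and fell without overlap (log2 change -0.48, SE 0.096, edgeR adjusted p = 0.00243). The mRNAs of Ern1 and Xbp1, an enzyme and its substrate, thus changed in opposite directions in the same libraries. Eif2ak3 (ENSMUSG00000031668), the gene of the PERK kinase, averaged 29 ± 0.826 CPM in knockout (n = 3) and 28.5 ± 0.847 CPM in wild-type libraries (SD, n = 4), and its small difference did not pass (log2 change 0.038, SE 0.087, edgeR adjusted p = 0.786). Atf4 (ENSMUSG00000042406), whose protein is controlled mainly by translation, averaged 157 ± 8.36 CPM in knockout and 152 ± 16.3 CPM in wild-type libraries (log2 change 0.059, SE 0.099, edgeR adjusted p = 0.697).

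The 6 genes activated by ATF4 and CHOP divided into 2 that rose, 2 that fell and 2 that did not pass. Trib3 (ENSMUSG00000032715), a pseudokinase induced in the stress response that feeds back on ATF4, stood at 14.2, 12.2 and 10.9 CPM in knockout libraries, against 3.09, 3.20, 2.37 and 2.41 CPM in wild-type libraries. The lowest knockout library was above the highest wild-type library, and this was the largest change of any member in inguinal fat (log2 change 2.18, SE 0.16, edgeR adjusted p = 1.35e-06). Asns (ENSMUSG00000029752), the enzyme that makes asparagine, stood at 184, 169.6 and 158 CPM in knockout libraries and 103, 101, 101 and 115 CPM in wild-type libraries. The groups did not overlap (log2 change 0.71, SE 0.091, edgeR adjusted p = 9.59e-05). Chac1 (ENSMUSG00000027313), an enzyme that degrades glutathione, stood at 0.657, 0.303 and 0.475 CPM in knockout libraries, against 1.09, 1.93, 2.98 and 0.808 CPM in wild-type libraries. It fell (log2 change -1.77, SE 0.47, edgeR adjusted p = 0.0125), but from few reads, its lowest count in any of the 15 libraries being 9. Its call was lost without knockout library 3 and when all 4 groups shared 1 fit (edgeR adjusted p = 0.0631 and 0.141), and with limma-voom (adjusted p = 0.0507).

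The serine synthesis pair did not move together. Phgdh (ENSMUSG00000053398), its first enzyme, averaged 65.1 ± 6.23 CPM in knockout and 88.7 ± 13.3 CPM in wild-type libraries, and fell without overlap (log2 change -0.44, SE 0.11, edgeR adjusted p = 0.0116). This call was lost without knockout library 3 and when all 4 groups shared 1 fit (edgeR adjusted p = 0.0702 and 0.0629). Psat1 (ENSMUSG00000024640), the next enzyme, averaged 191 ± 15 CPM in knockout and 198 ± 20.2 CPM in wild-type libraries (log2 change -0.043, SE 0.098, edgeR adjusted p = 0.782). Sesn2 (ENSMUSG00000028893), a sensor of leucine that restrains mTORC1, averaged 31.7 ± 9.96 CPM in knockout and 29.9 ± 10.3 CPM in wild-type libraries, with overlapping groups (log2 change 0.10, SE 0.31, edgeR adjusted p = 0.842). Psat1 and Sesn2 therefore gave no call in either direction.

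Of the 2 subunits that direct phosphatase activity to eIF2alpha, the inducible one rose and the constitutive one did not pass. Ppp1r15a (ENSMUSG00000040435), also called GADD34, stood at 28.5, 21.4 and 19.7 CPM in knockout libraries, against 10.7, 12.2, 16.2 and 13.7 CPM in wild-type libraries (log2 change 0.83, SE 0.16, edgeR adjusted p = 0.00165). All knockout libraries lay above all wild-type libraries, and the call was lost when all 4 groups shared 1 fit (edgeR adjusted p = 0.0623). Ppp1r15b (ENSMUSG00000046062), also called CReP, averaged 216 ± 15.5 CPM in knockout and 209 ± 9.23 CPM in wild-type libraries (log2 change 0.058, SE 0.087, edgeR adjusted p = 0.663).

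**Figure D2:**
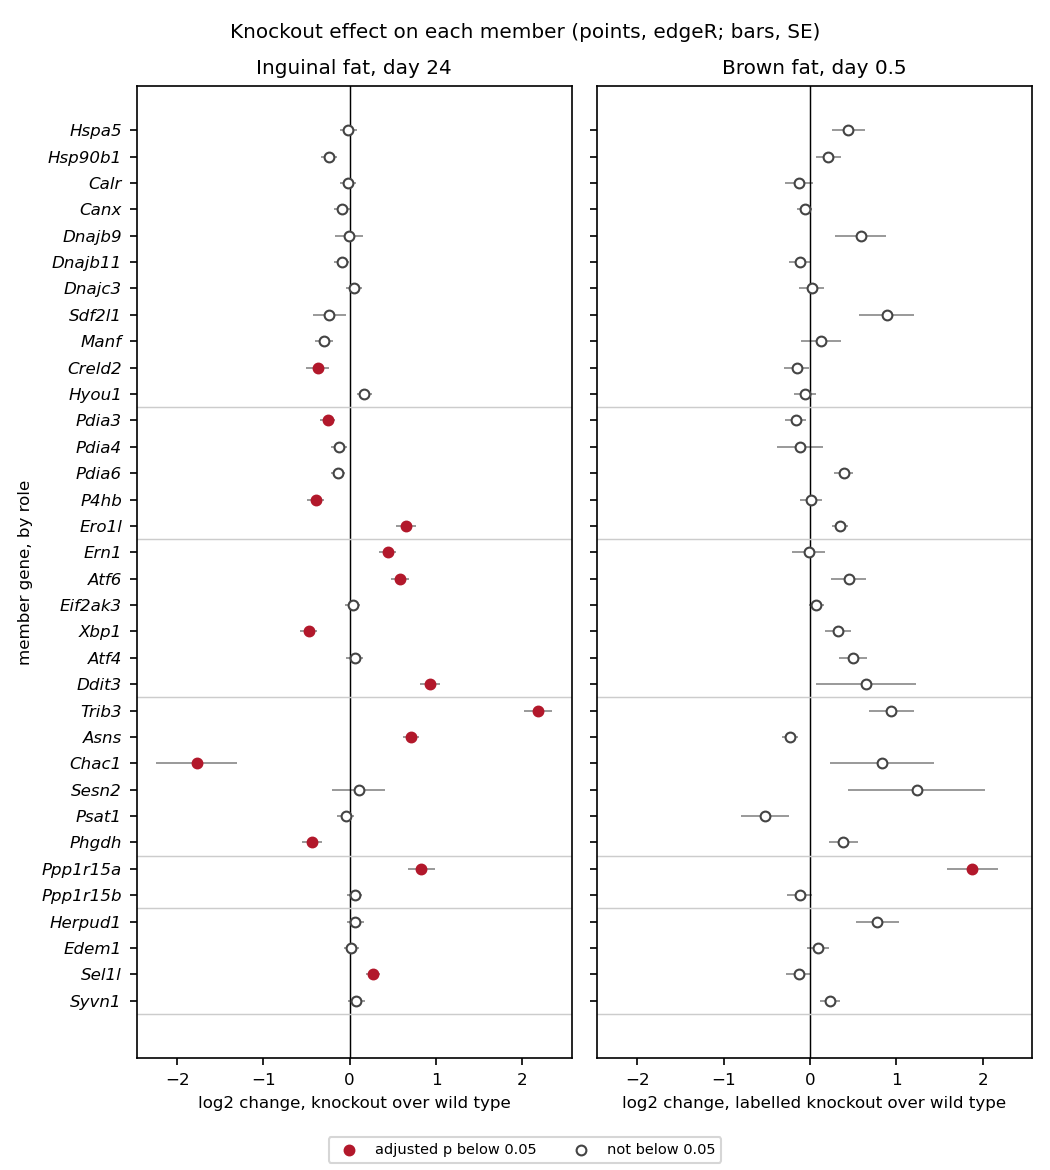
Log2 change of each member in knockout over wild-type libraries (edgeR; bars are 1 SE either side), in inguinal fat at day 24 on the left and brown fat at day 0.5 on the right, on the same scale; filled points had an adjusted p below 0.05. In inguinal fat 14 points are filled, 8 to the right and 6 to the left of 0, while in brown fat only Ppp1r15a is filled and the bars are wider for Sesn2, Ddit3 and Chac1.

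The disulfide enzymes also split. Ero1l (ENSMUSG00000021831), the oxidase that recharges protein disulfide isomerase, stood at 56.1, 79.9 and 61.8 CPM in knockout libraries, against 42.2, 45.9, 38.9 and 42.1 CPM in wild-type libraries, and rose without overlap (log2 change 0.65, SE 0.11, edgeR adjusted p = 0.000828). Its partner P4hb (ENSMUSG00000025130), the main disulfide isomerase, stood at 359.7, 332 and 342 CPM in knockout libraries, against 473, 418, 432 and 505 CPM in wild-type libraries. P4hb fell without overlap (log2 change -0.39, SE 0.095, edgeR adjusted p = 0.0073), so the oxidase and the isomerase moved in opposite directions. Pdia3 (ENSMUSG00000027248), which folds glycoproteins together with calreticulin and calnexin, averaged 309.6 ± 11.2 CPM in knockout and 373 ± 28.5 CPM in wild-type libraries. Its fall was at the edge of the test (log2 change -0.26, SE 0.091, edgeR adjusted p = 0.0473) and was lost in each fit that left out 1 library (edgeR adjusted p 0.0539 to 0.122). Pdia6 and Pdia4, further isomerases, changed by -0.14 and -0.13 on the log2 scale and did not pass (edgeR adjusted p = 0.262 and 0.328).

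Of the 11 chaperones and cochaperones, 1 fell and 10 did not pass. Creld2 (ENSMUSG00000023272), a secreted ER stress-inducible protein, averaged 19.3 ± 3.18 CPM in knockout and 25.2 ± 2.94 CPM in wild-type libraries, with overlapping groups (log2 change -0.37, SE 0.13, edgeR adjusted p = 0.0426). This call was lost without knockout library 3 or wild-type library 1, 3 or 4 (edgeR adjusted p 0.0632 to 0.193). Hspa5 (ENSMUSG00000026864), the gene of BiP, the chaperone that holds the sensors inactive, stood at 509, 524 and 521 CPM in knockout libraries and 516, 520.2, 477 and 596 CPM in wild-type libraries. Its groups overlapped closely (log2 change -0.013, SE 0.095, edgeR adjusted p = 0.935). Manf, a secreted partner of BiP, had a log2 change of -0.30, and Hsp90b1, the ER form of HSP90, one of -0.24 (edgeR adjusted p = 0.0518 and 0.0708). Both lay lower in every knockout library than in any wild-type library and missed the threshold in the main edgeR fit. The DESeq2 Wald test called both lower. Manf was also called lower in edgeR with no low-count filter, with a replicate block, and without knockout library 2 or wild-type library 3.

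The remaining chaperones did not pass. Sdf2l1, a stress-induced partner of BiP, had a log2 change of -0.23, and Hyou1, a nucleotide exchange factor of BiP, one of 0.17 (edgeR adjusted p = 0.381 and 0.174). Calr and Canx, the calreticulin and calnexin genes, and the BiP cochaperones Dnajb9, Dnajb11 and Dnajc3 had log2 changes from -0.094 to 0.051. Summed over the 11 genes, chaperone mRNA was 2102 ± 64.2 CPM in knockout (n = 3) and 2225 ± 163 CPM in wild-type libraries (SD, n = 4).

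In ER-associated degradation, Sel1l (ENSMUSG00000020964), the scaffold of the ubiquitin ligase, averaged 146 ± 9.80 CPM in knockout and 122 ± 1.98 CPM in wild-type libraries. It rose without overlap (log2 change 0.27, SE 0.084, edgeR adjusted p = 0.027), and this call was lost without knockout library 3 or any 1 wild-type library (edgeR adjusted p 0.0591 to 0.0939). Its ligase partner Syvn1, the mannosidase-like Edem1 and the membrane protein Herpud1 had log2 changes of 0.077, 0.019 and 0.067 and did not pass (edgeR adjusted p = 0.607, 0.9 and 0.651). Across the 34 members, 8 were higher and 8 lower in every knockout than in any wild-type library, beside 18.3% and 18.5% of all genes tested.

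Further pathway genes that are not members were read from 97 listed entries. Of 22 tested ATF4 targets, 7 rose and 4 fell, beside 15.3% of all genes tested that rose and 13.3% that fell. Cbs, the first enzyme of transsulfuration, rose to 17.1 ± 3.26 CPM in knockout, against 4.94 ± 0.159 CPM in wild-type libraries (log2 change 1.80, SE 0.14, edgeR adjusted p = 1.6e-06). Cth, the next enzyme, rose to 34.5 ± 1.94 CPM in knockout, against 14 ± 2.06 CPM in wild-type libraries (log2 change 1.30, SE 0.12, edgeR adjusted p = 5.73e-06). Both enzymes of the route to cysteine were therefore higher. Fam129a, a gene linked to translation control, rose by 0.80 on the log2 scale (edgeR adjusted p = 9.19e-05). Fgf21, a secreted metabolic hormone, averaged 1.11 ± 0.529 CPM in knockout and 0.0328 ± 0.0318 CPM in wild-type libraries, so its change rests on very few wild-type reads. Among the targets that fell, named after their values were seen, were Ddit4, an inhibitor of mTORC1 (-0.87), Stc2 (-1.10), and the amino acid transporters Slc7a3 (-0.9995) and Slc1a5 (-0.32) on the log2 scale.

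Of 20 cytosolic tRNA synthetases, 6 rose and 1 fell, beside the same 15.3% and 13.3% of all genes tested. Of these synthetases 19 had a positive log2 change, with a median of 0.16. Iars (0.54), Gars (0.44), Wars (0.43) and Aars (0.41) had the smallest p-values. Of 20 further ER folding and translocation genes, 1 rose and 5 fell. Txndc11 rose by 0.36 on the log2 scale, and Erp29, Sec61g and Dnajc10 had log2 changes of -0.44, -0.50 and -0.32. Of 15 further degradation genes, Derl1, a channel component of ER-associated degradation, alone passed (log2 change 0.30). Of 19 further sensors and regulators, 3 rose and 2 fell: Atf5, a relative of ATF4 (0.79), Mbtps1, the protease that first cleaves ATF6 (0.38), and Atf6b (0.36) rose, and Atf3 (-0.63) and Cebpb (-0.55) had negative log2 changes. The edgeR adjusted p of the genes named in these lists was at most 0.0356.

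Other cell markers moved in the same libraries. Skeletal muscle genes fell in 7 of 7 cases and summed to 28.3 to 32.6 CPM in knockout libraries, against 105 to 296 CPM in wild-type libraries. Of 5 thermogenic adipocyte markers 3 rose, and their sum was 2336 to 2949 CPM in knockout libraries and 1089.9 to 1699.8 CPM in wild-type libraries. Irf4, a factor also known from adipocytes, made up most of the sum of the B and plasma cell markers. It stood at 29.6 to 35.6 CPM in knockout and 44.2 to 314 CPM in wild-type libraries. The other B and plasma cell markers summed to 13.9 to 23.1 CPM in knockout and 21 to 30 CPM in wild-type libraries, which overlapped. Of the 8 markers with Irf4 included, 2 fell and 0 had a positive change (median log2 change -0.889). Of 4 endothelial markers 2 fell (689 to 750.3 CPM in knockout, 766 to 926 CPM in wild-type libraries). Epithelial markers summed to 0.104 to 0.135 CPM in knockout libraries, where Krt5 was at 0, and 0.493 to 6.73 CPM in wild-type libraries. Adipocyte, macrophage, fibroblast, erythroid and immediate early sums overlapped between the groups. Single genes of these lists still passed: of 8 immediate early genes 2 rose and 3 fell, and of 6 adipocyte markers 1 rose. All these marker counts stand beside 15.3% of genes tested that rose and 13.3% that fell. The part of these differences in the member changes was not tested.

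In brown fat at day 0.5, the labelled knockout libraries differed from wild type at 1 member, Ppp1r15a, which was higher. It stood at 32.6, 85.4, 54.2 and 82.1 CPM in labelled knockout libraries 1 to 4, against 14.7, 13.8, 18.8 and 21.3 CPM in wild-type libraries, and every labelled knockout value lay above every wild-type value (log2 change 1.88, SE 0.30, edgeR adjusted p = 0.0456). The other 33 members did not pass. The 1 call stands beside 0.260% of 15796 genes tested, and the members with an unadjusted p below 0.05 numbered 10, beside 18.5% of genes tested. The median log2 change was 0.17 over the members and 0.0061 over all genes tested, and 22 of 34 members had a positive change. Leaving out labelled knockout library 2, 3 or 4, or any 1 wild-type library, ended the Ppp1r15a call (edgeR adjusted p 0.0754 to 0.149).

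Immediate early genes were also higher in these libraries. Of 8 tested, 4 rose (Fos, Jun, Junb and Zfp36), beside 0.184% of all genes tested. The sum of the 8 was 233 to 260.3 CPM in labelled knockout libraries and 74.9 to 118 CPM in wild-type libraries. Irf4 ranged from 46.5 to 2144 CPM in labelled knockout libraries and from 31.0 to 147 CPM in wild-type libraries, while the other B and plasma cell markers summed to 14.1 to 19.1 CPM in labelled knockout and 11.6 to 15.9 CPM in wild-type libraries. Epithelial Krt5 stood at 45.4 CPM in labelled knockout library 4 and at most at 0.0937 CPM in the other 7 brown libraries. Adipocyte sums, given above, were lower in every labelled knockout than in any wild-type library. Of the 6 adipocyte markers 0 were called in edgeR, and 3 had a positive change. Fibroblast and matrix genes had a positive change in 6 of 6 cases (5277 to 8217 CPM in labelled knockout, 3672 to 5683 CPM in wild-type libraries) and endothelial markers a negative one in 4 of 4 (944 to 1077 CPM in labelled knockout, 1043 to 1274 CPM in wild-type libraries), with overlapping sums and no call. Thermogenic sums were 3330 to 6229.9 CPM in labelled knockout and 4844 to 9097 CPM in wild-type libraries and overlapped, as did muscle, macrophage and erythroid sums. The part of these differences in the Ppp1r15a change was not tested.

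Brown labelled knockout library 1 set the spread of many members. It held the highest brown value of 11 members and the lowest of 8, beside 21.8% and 20% of all genes tested. Ddit3 stood at 64.4, 9.47, 16.7 and 11.1 CPM in labelled knockout libraries, against 20.7, 20.3, 12.3 and 11.2 CPM in wild-type libraries (log2 change 0.65, SE 0.58, edgeR adjusted p = 0.589). Library 1 was far above the other 7 brown libraries, and the other 3 labelled knockout libraries lay within or below the wild-type range. Sesn2 stood at 9.64, 198, 102 and 222 CPM in labelled knockout libraries, a 23.0-fold range, against 24.5, 29.9, 58.7 and 111 CPM in wild-type libraries (log2 change 1.24, SE 0.79, edgeR adjusted p = 0.431). Here library 1 was the lowest of all brown libraries. Chac1 stood at 1.87, 13.1, 11 and 9.01 CPM in labelled knockout libraries, against 3.23, 2.25, 3.90 and 10.1 CPM in wild-type libraries (log2 change 0.83, SE 0.61, edgeR adjusted p = 0.495), again with library 1 lowest.

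With that library left out, 10 members passed in brown fat, beside 18.1% of 16071 genes tested. The 8 higher members, beside 9.66% of genes, were Ppp1r15a, Trib3, Herpud1, Dnajb9, Atf4, Atf6, Pdia6 and Ero1l, and the 2 lower, beside 8.41%, were Psat1 and Pdia4. Atf4 stood at 95.8, 146, 118 and 156 CPM in all 4 labelled knockout libraries, against 83.3, 91.2, 82.2 and 107 CPM in wild-type libraries. Its log2 change was 0.49 with 4 labelled knockout libraries (edgeR adjusted p = 0.158) and 0.61 without library 1 (edgeR adjusted p = 0.00951). Trib3 stood at 17.6, 25.2, 34.7 and 24.2 CPM in labelled knockout libraries and 19.1, 14.3, 9.72 and 9.71 CPM in wild-type libraries. Its log2 change was 0.94 (edgeR adjusted p = 0.129) and, without library 1, 1.08 (edgeR adjusted p = 0.0198). Herpud1 stood at 132, 282, 257 and 144 CPM in labelled knockout libraries, against 126, 96, 139 and 112 CPM in wild-type libraries, the highest values being those of libraries 2 and 3. Its log2 change was 0.78 (edgeR adjusted p = 0.159) and 0.94 without library 1 (edgeR adjusted p = 0.025).

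Among the other sensors in brown fat, Atf6 averaged 125 ± 32.9 CPM in labelled knockout and 91.3 ± 17.9 CPM in wild-type libraries (SD, n = 4 each; log2 change 0.45, SE 0.20, edgeR adjusted p = 0.274). Xbp1 averaged 126 ± 16.9 CPM in labelled knockout and 101 ± 19.8 CPM in wild-type libraries (log2 change 0.32, SE 0.15, edgeR adjusted p = 0.284). Both had a positive change that did not pass. Ern1 and Eif2ak3 had log2 changes of -0.017 and 0.074 (edgeR adjusted p = 0.974 and 0.694). Sdf2l1 stood at 3.03, 1.34, 1.46 and 2.77 CPM in labelled knockout libraries and 1.08, 1.47, 1.20 and 0.887 CPM in wild-type libraries (log2 change 0.89, SE 0.32, edgeR adjusted p = 0.192). Its 2 highest values were in labelled knockout libraries 1 and 4, and the groups overlapped. Across the 34 members, 3 were higher and 1 lower in every labelled knockout than in any wild-type library, beside 4.88% and 4.86% of genes tested. Of 95 other pathway genes tested, 0 passed in edgeR (beside 0.260% of all genes) and 15 had an unadjusted p below 0.05 (beside 18.5%). With the DESeq2 test 7 passed, all higher, beside 6.53% of all genes called in either direction. Without labelled knockout library 1, 19 of the 95 passed as higher and 4 as lower in edgeR, beside 9.66% and 8.41% of all genes.

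**Figure D3:**
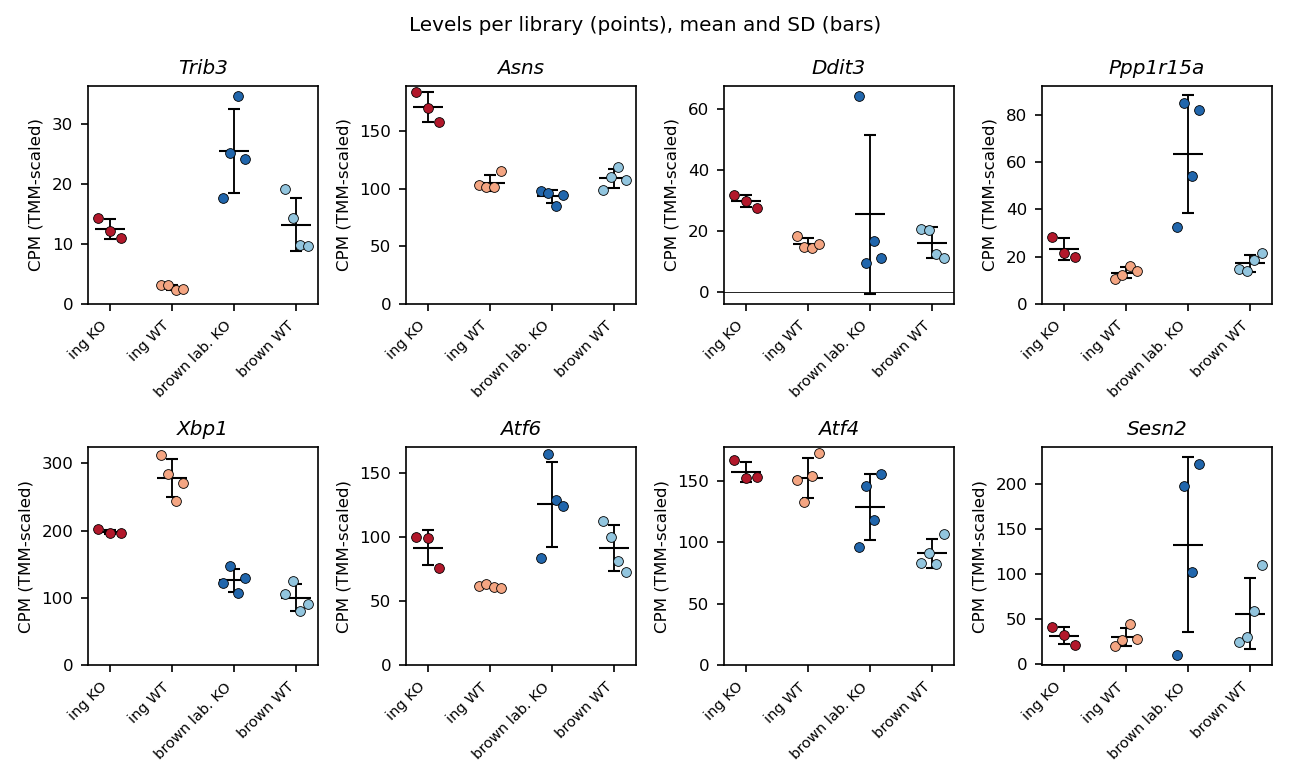
CPM of 8 members in each library (points) with the group mean and SD (bars), for inguinal knockout (n = 3), inguinal wild type, brown labelled knockout and brown wild type (n = 4 each). Inguinal knockout points lie above inguinal wild-type points for Trib3, Asns, Ddit3, Ppp1r15a and Atf6 and below them for Xbp1, and 1 brown labelled knockout point stands alone for Ddit3 and for Sesn2.

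The difference between the 2 knockout effects, inguinal minus brown, was then tested in a single fit of the 4 groups. Of the 34 members, 5 passed, beside 9.00% of 16858 genes tested: Asns and Trib3 had a higher effect in inguinal fat (beside 4.80% of genes) and Xbp1, Phgdh and Pdia6 a lower one (beside 4.20%). Without brown labelled knockout library 1, 12 passed, beside 21.2% of genes tested. Without brown labelled knockout library 4 there were 3 (beside 5.93%), and without inguinal knockout library 3 only Asns passed (beside 3.64%). The median difference was -0.10 over the members and -0.066 over all genes tested. Asns had a log2 change of 0.71 in inguinal fat and -0.23 in brown fat, where labelled knockout libraries at 97.8, 96.3, 85.3 and 94.3 CPM all lay below wild-type libraries at 98.9, 110.3, 119 and 108 CPM. The difference was 0.92 (SE 0.13, edgeR adjusted p = 0.000832) and passed in each of 20 alternative fits. The Trib3 change was 2.18 in inguinal and 0.94 in brown fat, a difference of 1.22 (SE 0.33, edgeR adjusted p = 0.0323) that was lost in 8 of the 20. Of these, 7 left out 1 library, with edgeR adjusted p from 0.0542 to 0.0869. Both Trib3 estimates were positive, but the brown change did not pass with all libraries (edgeR adjusted p = 0.129). These values therefore do not separate a difference of size from a rise in inguinal fat only.

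Xbp1 changed by -0.48 in inguinal and 0.32 in brown fat on the log2 scale, and the difference was -0.82 (SE 0.19, edgeR adjusted p = 0.0168). Phgdh changed by -0.44 in inguinal and 0.39 in brown fat, with a difference of -0.84 (SE 0.21, edgeR adjusted p = 0.0211). Both differences were lost without inguinal knockout library 3 (edgeR adjusted p = 0.0513 for Xbp1 and 0.0757 for Phgdh). Pdia6 stood at 207, 193, 169 and 218 CPM in brown labelled knockout libraries, all above brown wild-type libraries at 154, 164, 142 and 138 CPM, while in inguinal fat its change was -0.14. The difference was -0.54 (SE 0.14, edgeR adjusted p = 0.022), and it was lost without brown labelled knockout library 4 or inguinal knockout library 3 (edgeR adjusted p = 0.05 and 0.0733). Larger differences that did not pass were those of Chac1 (-2.63), Sesn2 (-1.16), Sdf2l1 (-1.14), Ppp1r15a (-1.07), Herpud1 (-0.73) and Dnajb9 (-0.61), with edgeR adjusted p from 0.08 to 0.51. Ddit3, Atf4, Atf6, Ern1 and Eif2ak3 had differences of 0.26, -0.46, 0.12, 0.44 and -0.056. The passed call of Ddit3 in inguinal and not in brown fat is therefore not shown to be a difference between the depots.

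Across the wild-type libraries, the chaperones and most disulfide enzymes were higher in inguinal fat at day 24 than in brown fat at day 0.5. Of the 34 members, 27 passed, 21 higher and 6 lower, beside 61.4% of 15979 genes tested (30.7% higher and 30.7% lower). The median log2 change was 0.62 over the members and -0.0097 over all genes tested. A 2-fold change or more was seen for 12 members, and the share of all genes with such a change was not counted. The factors and ATF4 targets went both ways, and each of these values joins depot with age. Cell type markers also differed: skeletal muscle genes summed to 105 to 296 CPM in inguinal and 1916 to 3385 CPM in brown wild-type libraries. Of these 7 genes, 6 were lower and 1 was higher in inguinal fat. Fibroblast and matrix genes summed to 8956 to 13276 CPM in inguinal and 3672 to 5683 CPM in brown wild-type libraries. Thermogenic markers summed to 1089.9 to 1699.8 CPM in inguinal and 4844 to 9097 CPM in brown wild-type libraries, 3 of 5 being lower in inguinal fat, and endothelial markers were lower in 4 of 4 cases (766 to 926 CPM in inguinal, 1043 to 1274 CPM in brown libraries). Adipocyte markers were higher in inguinal fat in 5 of 6 cases, B and plasma cell markers in 5 of 8, immediate early genes in 5 of 8 and macrophage markers in 2 of 4. The part of these differences in the member values was not tested.

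All 11 chaperones were higher in inguinal fat. Sdf2l1 had the largest change among them, with 5.63, 5.68, 5.34 and 8.44 CPM in inguinal libraries against 1.08, 1.47, 1.20 and 0.887 CPM in brown libraries (log2 change 2.45, SE 0.22, edgeR adjusted p = 1.7e-06). Manf averaged 60.3 ± 8.36 CPM in inguinal and 20.9 ± 3.12 CPM in brown libraries (SD, n = 4 each; log2 change 1.53, SE 0.12, edgeR adjusted p = 1.07e-06). Hspa5 averaged 527 ± 49.4 CPM in inguinal and 257 ± 23.1 CPM in brown libraries (log2 change 1.04, SE 0.093, edgeR adjusted p = 1.97e-06). The inguinal values of these genes lay above all brown values. Calr (1.14), Creld2 (1.01), Hyou1 (0.93), Hsp90b1 (0.92), Dnajb11 (0.61), Canx (0.55), Dnajb9 (0.55) and Dnajc3 (0.41) completed the set on the log2 scale, with edgeR adjusted p at most 0.00311. The Dnajb9 call was lost when all 4 groups shared 1 fit (edgeR adjusted p = 0.0952). Of the disulfide enzymes, P4hb (1.10), Pdia4 (1.06), Pdia3 (0.85) and Pdia6 (0.64) were higher and Ero1l did not pass (0.14, edgeR adjusted p = 0.138). The 8 members with an ERSE match in their window were all among the 21 that were higher, as were members without one, such as Sdf2l1 and P4hb.

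The sensors did not follow the chaperones. Atf6 averaged 61.6 ± 1.11 CPM in inguinal and 91.3 ± 17.9 CPM in brown libraries and was lower in inguinal fat (log2 change -0.57, SE 0.12, edgeR adjusted p = 0.00141). Ern1 was lower as well (log2 change -0.43, SE 0.088, edgeR adjusted p = 0.00111), and Eif2ak3 did not pass (log2 change -0.17, SE 0.070, edgeR adjusted p = 0.0507). Xbp1 stood at 312, 284, 244 and 271 CPM in inguinal libraries, against 106, 126, 80.3 and 90.3 CPM in brown libraries, and was higher (log2 change 1.47, SE 0.13, edgeR adjusted p = 3.77e-06). Atf4 averaged 152 ± 16.3 CPM in inguinal and 91 ± 11.5 CPM in brown libraries and was also higher (log2 change 0.74, SE 0.10, edgeR adjusted p = 6.02e-05). Ddit3 did not pass (log2 change -0.037, SE 0.20, edgeR adjusted p = 0.889). The Xbp1 mRNA was thus higher in the depot where the mRNA of IRE1, its splicing enzyme, was lower.

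The ATF4 targets showed the widest range of any role. Psat1 stood at 194, 186, 185 and 228 CPM in inguinal libraries, against 21, 38.6, 24.2 and 27.3 CPM in brown libraries (log2 change 2.84, SE 0.18, edgeR adjusted p = 1.29e-06). Phgdh averaged 88.7 ± 13.3 CPM in inguinal and 16.6 ± 3.40 CPM in brown libraries (log2 change 2.42, SE 0.15, edgeR adjusted p = 4.48e-07). These serine synthesis genes had 2 of the 3 largest positive changes of the members. Trib3 stood at 3.09, 3.20, 2.37 and 2.41 CPM in inguinal libraries, against 19.1, 14.3, 9.72 and 9.71 CPM in brown libraries, and had the most negative change (log2 change -2.25, SE 0.23, edgeR adjusted p = 8.37e-06). Chac1 was lower (log2 change -1.58, SE 0.57, edgeR adjusted p = 0.0418), although its groups overlapped and its call was lost in 7 of 14 alternative fits. Asns (-0.050) and Sesn2 (-0.91) did not pass (edgeR adjusted p = 0.59 and 0.171). In inguinal knockout fat Trib3 stood at 14.2, 12.2 and 10.9 CPM, values that lay within the range of brown wild-type fat.

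**Figure D4:**
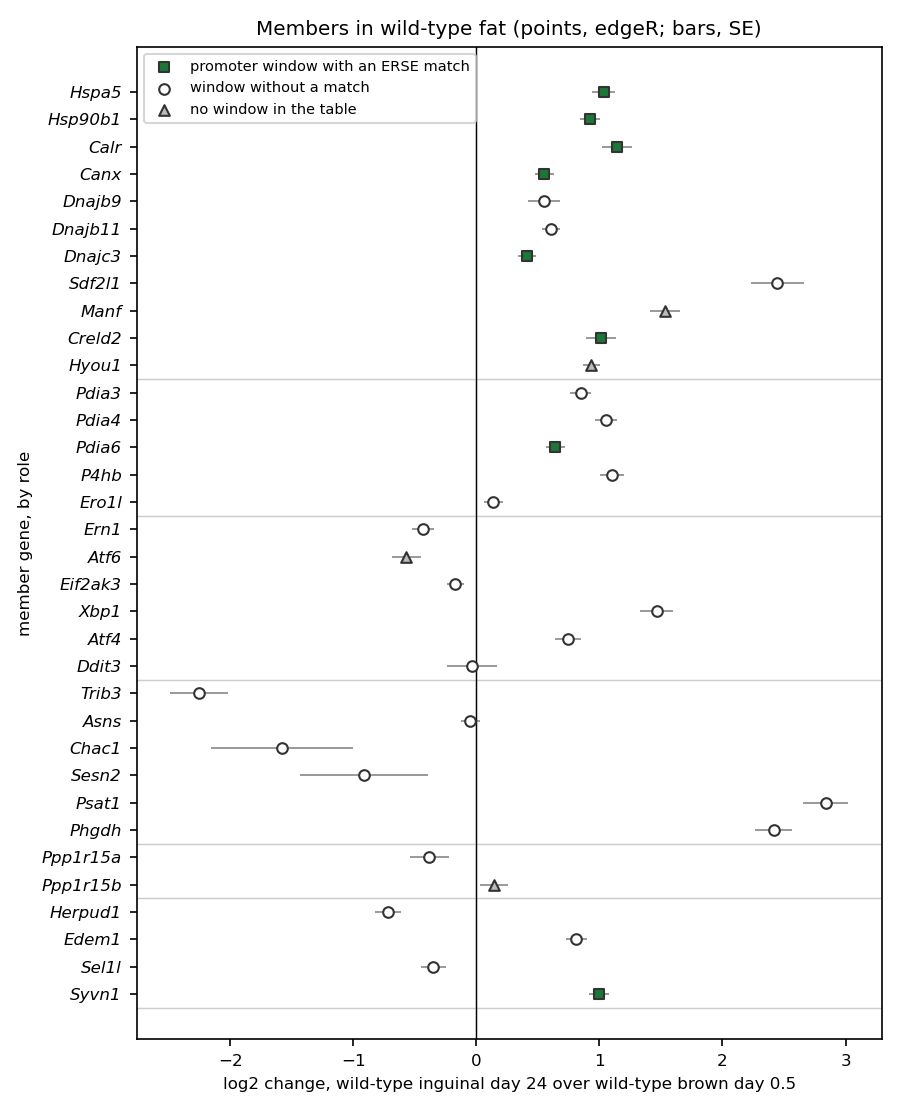
Log2 change of each member in wild-type inguinal fat at day 24 over wild-type brown fat at day 0.5 (edgeR; bars are 1 SE either side; n = 4 each), by role from top to bottom. Green squares mark members with an ERSE match in their promoter window, all of which lie to the right of 0, open circles members without one and triangles members without a window in the table.

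Of the phosphatase subunits, Ppp1r15a (-0.38) and Ppp1r15b (0.14) did not pass between the wild-type depots (edgeR adjusted p = 0.0581 and 0.287). The degradation genes divided, with Syvn1 (0.997) and Edem1 (0.81) higher and Herpud1 (-0.72) and Sel1l (-0.35) lower in inguinal fat, the largest edgeR adjusted p being 0.0107. Sel1l and Syvn1, which work in 1 complex, moved in opposite directions. Of the 95 other pathway genes tested, 53 were higher and 16 lower in inguinal fat, beside 30.7% and 30.7% of all genes. They included 14 of 20 further ER folding and translocation genes, all higher.

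Levels between genes were compared per kilobase of exon. Calr ranked first of the 34 members in inguinal knockout (179.9 CPM per kb), inguinal wild-type (184 CPM per kb) and brown wild-type libraries (83.6 CPM per kb). Herpud1 ranked first in brown labelled knockout libraries (87.4 CPM per kb), ahead of Hspa5 (83.2 CPM per kb) and Calr (76.9 CPM per kb). Chac1 was lowest in both inguinal groups (0.292 CPM per kb in knockout and 1.04 CPM per kb in wild-type libraries). Sdf2l1 was lowest in both brown groups (1.94 CPM per kb in labelled knockout and 1.05 CPM per kb in wild-type libraries). The sensor genes Ern1 and Eif2ak3 were among the lowest members in every group, at 3.01 and 4.72 CPM per kb in inguinal wild-type libraries.

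The median coefficient of variation of the members was 7.74% in inguinal knockout, 7.92% in inguinal wild-type, 19.5% in brown labelled knockout and 13.1% in brown wild-type libraries. Over all genes tested it was 13.8% in inguinal knockout, 10.5% in inguinal wild-type, 21.1% in brown labelled knockout and 14.4% in brown wild-type libraries. Chac1 was the most variable member in 3 groups, at 37.0% in inguinal knockout, 57.3% in inguinal wild-type and 73.0% in brown wild-type libraries. In brown labelled knockout libraries it was Ddit3, at 103%.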

How the data were processed

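The members and all gene lists were chosen with earlier results of these data known. Per the labels' protocols, TRIsure and column kits yielded total RNA, and the TruSeq Stranded mRNA kit (Illumina) made the libraries. Tools listed in the submitters' processing notes are edgeR, Subread, featureCounts and TopHat2 2.1.0, with build mm9. The sources used here give neither their roles, nor the annotation, nor a strand setting, so members that overlap other genes are uncertain. The authors deposited counts for each Ensembl gene without normalizing them. All 15 columns were used.

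Symbols were matched for 32919 of 37991 identifiers. Genes were kept by filterByExpr (minimum count 10), scaled by TMM and tested with the robust quasi-likelihood test of edgeR 4.0.16 in R 4.3.3. Each comparison used its own libraries, and the difference of effects used all 4 groups. Calls had a Benjamini-Hochberg adjusted p below 0.05 over all genes tested. SE was taken as the size of the log2 change over the root of F. CPM per kb used merged exon lengths of GENCODE M21, from another build than the files, so no file coordinates are given. Promoters are RefSeq windows of build GRCm38.p6.

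In simulated counts, genes changed 2-fold were recovered in 86.6% of cases in inguinal fat (15710 genes), 71.6% in brown fat (15796 genes), 50.7% for the difference (16858 genes) and 85.1% for the wild-type depots (15979 genes). Unchanged genes made up 10.5%, 8.66%, 6.73% and 7.65% of those calls. No pair of libraries of 1 group agreed within sampling noise (lowest chi-square per degree of freedom 14.7). Members named are those that passed, the 6 largest other changes of each comparison, and the sensors and factors. Of each further list, up to 4 members that passed were to be named by smallest p. More than 4 are named for the inguinal ATF4 targets and for the further sensors and regulators. Alternatives were DESeq2 1.42.0 (size factors, Wald test), no low-count filter, limma 3.58.1 voom with quality weights, a replicate block, all 4 groups in 1 fit, and each library left out.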

Additional observations from a re-analysis of the deposited data

Results flagged for a closer look

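A single library stood far from the other 3 of its group in 6 of 102 examined cases, a member in a group of 4, by Dixon's criterion for the gap over the range. Chance gives about 1 in 20. In brown labelled knockout library 1, Ddit3 stood at 64.4 CPM (the others 9.47 to 16.7), Hyou1 at 49.5 CPM (34.2 to 35.1) and Psat1 at 31.9 CPM (13.7 to 16.4). In inguinal wild-type library 4, Sdf2l1 stood at 8.44 CPM (the others 5.34 to 5.68), Pdia3 at 415 CPM (354 to 361) and Asns at 115 CPM (101 to 103). That wild-type library also held the highest inguinal value of 14 members, 12 of them chaperones and isomerases, beside 15.7% of all genes.

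For 5 members the knockout effect differed between the depots, as a log2 difference of inguinal minus brown in edgeR. The difference was 0.919 for Asns (adjusted p = 0.000832), 1.22 for Trib3 (0.0323), -0.818 for Xbp1 (0.0168), -0.842 for Phgdh (0.0211) and -0.544 for Pdia6 (0.022). Depot and age cannot be told apart in these differences.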

How the results depend on the processing

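Of 47 calls of single members over the 4 comparisons, 32 passed under every alternative, and none changed sign. Most of the 32 were calls between the wild-type depots, where only Dnajb9 and Chac1 lost theirs. Of the knockout calls, those that passed throughout were Trib3, Asns, Atf6, Ero1l, Xbp1 and P4hb in inguinal fat and Asns for the difference. The brown call of Ppp1r15a passed in 5 of 14 alternatives. In brown fat 1 member passed, and 5 did in the fit of all 4 groups together (beside 6.83% of all genes tested). Counts were 9 with limma-voom (19.8%), 4 with the DESeq2 Wald test (6.53%) and 0 with no low-count filter (0.264%). With 1 brown library left out, 0 to 10 passed (0.0125% to 18.1%). In inguinal fat 14 passed, against 6 with all 4 groups in 1 fit (13.3% of all genes). With 1 inguinal library left out, 9 to 14 passed (20.2% to 29.5%). For the difference 5 passed, against 11 with limma-voom (21.9% of all genes) and 8 with the DESeq2 Wald test (13.9%). With 1 library of either depot left out, 1 to 12 passed (3.64% to 21.2%). Between wild-type depots 27 passed, against 26 to 29 under all alternatives (39.9% to 62.7% of all genes). The cause of these shifts was not tested.

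The replicate numbers of the labels were not taken to pair libraries, because the labels do not say what a number shares. Deviations of same-numbered knockout and wild-type libraries had correlations of -0.0359 to 0.141 in brown fat and -0.0721 to 0.0332 in inguinal fat. For pairs with different numbers they were -0.118 to 0.0731 in brown fat and -0.0688 to 0.0993 in inguinal fat. The highest brown value was that of a same-numbered pair, so these values do not settle whether brown libraries were paired. With the replicate block 0 members passed in brown fat (beside 0.0443% of all genes tested) and 12 in inguinal fat (25.4%). There were 3 for the difference (5.10%) and 27 between the wild-type depots (59.9%).

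At 3 or 4 libraries a group, small changes were often missed: in simulated counts 1.5-fold changes were recovered in 10.4% of cases in brown fat (15796 genes) and 70.1% in inguinal fat (15710 genes). Chac1, Sdf2l1 and Trib3 rest on the fewest reads. In brown fat 1 member passed with labelled knockout library 1 and 10 without it, beside 0.260% and 18.1% of all genes tested. Il33 was only partly lower in the brown labelled knockout group.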
